A study of Mus musculus with 58 samples.

Results

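The nuclear genes of the mitochondrial respiratory chain were examined in 3 tissues of mice dosed with the polycyclic aromatic hydrocarbon benz(a)anthracene (BaA). A gene was included where its symbol starts with Nduf (complex I), Sdha to Sdhd (complex II), Uqcr (complex III), Cox4 to Cox8 (complex IV) or Atp5 (complex V). The array carried 97 such genes among its 20018 named genes, on 128 of 26413 probes with a symbol. They were 46 genes of complex I, 8 of complex II, 8 of complex III, 18 of complex IV and 17 of complex V. The rule uses no measured level, though it was set with earlier results of these data known.

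Male Muta™Mouse, a transgenic strain that carries a lacZ reporter for mutations in its tissues, were about 10 weeks old. For 28 days they were gavaged with olive oil alone (the D0 or vehicle group) or with oil holding BaA. The daily dose in mg/kg-bw was 20 in group D1, 40 in group D2 and 80 in group D3. Tissues (lung, liver, forestomach) were collected 72 h after the final gavage, and mice carry the same number in each tissue. Each group held 5 mice per tissue, except for 4 in forestomach D0 and 4 in liver D3, which gave 20 lung, 19 liver and 19 forestomach arrays.

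Complexes I to IV of the inner mitochondrial membrane pass electrons from NADH and succinate to oxygen, all but complex II pump protons as they do so, and complex V (ATP synthase) uses the resulting gradient to make ATP. Complex II is also the succinate dehydrogenase of the citric acid cycle. Several complex IV subunits exist as a common form and a form made in muscle, lung or testis. The few subunits encoded in mitochondrial DNA were not analysed here.

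Each value below is a log2 ratio of tissue RNA (Cy5) to a common reference RNA pooled from 11 mouse cell lines (Cy3), so a value of 0 means the same signal as the reference. A gene counted as tested in a tissue where its probe was well above background on at least 4 arrays. It was called where the limma test gave an adjusted p of at most 0.05 over all probes tested and the fold was at least 1.5, that is 0.58 on the log2 scale. In a piece of tissue, fewer cells of a type and less RNA per cell cannot be told apart. Spots well above background made up a median of 53.1% in lung, 37.9% in liver and 55.2% in forestomach. Labelled tissues carried their own markers, with list means of 6.02 to 6.38 for lung epithelium in lung, 7.12 to 7.83 for hepatocytes in liver and 3.42 to 4.29 for squamous epithelium in forestomach. The squamous list was also at 3.17 in the lung of vehicle mouse 5 and at 1.12 in that of D3 mouse 16, against at most 0.32 in the other lungs, and its part in the lung values was not tested.

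The chain genes were widely expressed, and 89 of 97 were above background on all 58 arrays. In lung 95, in liver 94 and in forestomach 95 were tested, and 94 were tested in every tissue. Cox7b2 and Cox8c, the testis forms of subunits 7b and 8, were the members missing from all 3 lists. Cox7b2 was above background on 0 arrays and Cox8c on 1 liver array. Cox8b, the heart and muscle form of subunit 8, was above background on 20 lung and 18 forestomach arrays but on 1 of 19 liver arrays.

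In vehicle animals the respiratory chain was higher in liver than in lung across all 5 complexes. Of 95 members, 69 were called higher in liver and 5 lower, while 55.2% of all 14932 genes were called in this comparison, 24.2% higher and 31% lower. The median difference was 0.93 for the members and -0.07 for all genes, with 86 of the 95 members above 0. Cox8b, which was tested here only through lung, is 1 of the 5 lower members. Higher members were 31 of 46 in complex I, 7 of 8 in complex II, 8 of 8 in complex III, 9 of 16 in complex IV and 14 of 17 in complex V. Every slide held 1 tissue, so slide and tissue cannot be told apart.

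**Figure D1:**
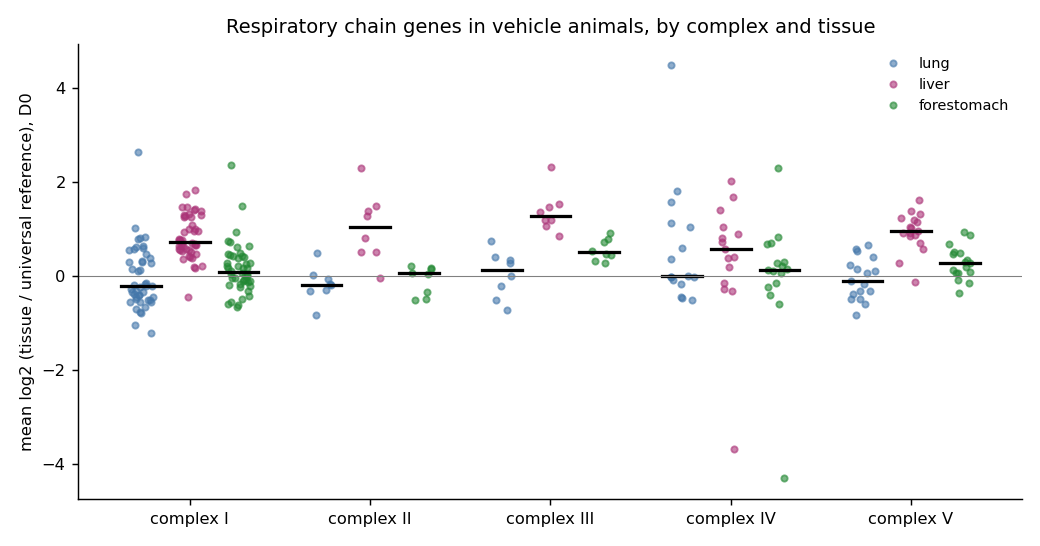
Mean log2 ratio of tissue to universal reference in vehicle (D0) animals, 1 point per gene, by complex and tissue, with a black line at the median of each set. The liver medians lie between 0.58 (complex IV) and 1.28 (complex III), above the lung medians of -0.22 to 0.14 in each complex. With arrays centred on their median in place of the loess curve, the median difference between liver and forestomach falls below 0 in 4 of the 5 complexes.

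In complex II all 4 succinate dehydrogenase subunits were higher in liver than in lung. Sdhb, the iron-sulfur subunit, had log2 ratios of -0.19, -0.23, -0.45, -0.09 and 0.06 in the lungs of mice 1 to 5 and of 2.35, 2.57, 2.14, 2.26 and 2.23 in their livers. In forestomach Sdhb was -0.05, 0.61, 0.03 and -0.03 in mice 1 to 4. The liver values thus stood apart from both other tissues, whose ranges overlapped. Sdhb was 2.49 ± 0.17 (SE) higher in liver than in lung (adjusted p = 2.74e-18) and 2.17 ± 0.18 higher than in forestomach (adjusted p = 5.31e-15). The flavoprotein Sdha, which binds succinate, was 1.36 ± 0.13 higher in liver than in lung. The membrane anchors Sdhc and Sdhd were 0.88 ± 0.14 and 1.60 ± 0.26 higher. None of the 8 complex II genes was called between forestomach and lung, where Sdhb differed by 0.32 ± 0.18 (adjusted p = 0.141) and 3 of the 8 had an unadjusted p under 0.05.

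In complex I, the 7 core subunits, which carry the flavin and iron-sulfur clusters, were all higher in liver than in lung. Ndufs1 differed by 1.11 ± 0.10 and Ndufv1, the NADH-binding subunit, by 1.52 ± 0.09. Of 31 accessory subunits 20 were higher and 1 lower, and of 8 assembly factors 4 were higher. Ndufa4, described as a subunit of complex IV, and its paralog Ndufa4l2 are counted among the accessory subunits by their symbols. Ndufab1, the mitochondrial acyl carrier protein, was between -1.23 and -0.45 in vehicle lungs, between 0.26 and 1.01 in forestomachs and between 1.12 and 1.57 in livers. No range of Ndufab1 overlapped another. It was 2.12 ± 0.15 higher in liver than in lung (adjusted p = 6.54e-18). Ndufaf6, an assembly factor, lay between -1.13 and -0.95 in lung, between -0.66 and -0.45 in forestomach and between 1.11 and 1.57 in liver, where it was 2.31 ± 0.10 above lung (adjusted p = 4.59e-26). Ndufa4l2, a paralog of Ndufa4 known for its induction by hypoxia, ran the other way. Its log2 ratio was 2.35 to 2.92 in lung, 2.06 to 2.64 in forestomach and 0.53 to 0.87 in liver, a difference from lung of -1.94 ± 0.18 (adjusted p = 6.29e-14).

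In complex III, which passes electrons from ubiquinol to cytochrome c, Uqcrq had the largest difference. Its log2 ratio was -0.17, -0.17, -0.07, 0.22 and 0.24 in vehicle lungs and 2.25, 2.37, 2.20, 2.29 and 2.53 in the livers of the same mice. The difference was 2.32 ± 0.17 (adjusted p = 1.34e-17). The Rieske iron-sulfur protein Uqcrfs1 was 1.70 ± 0.15 higher in liver, and the core protein Uqcrc1 was 1.59 ± 0.09 higher. In complex V all 5 F1 subunits, which form the catalytic head, were higher in liver than in lung. Atp5b, the catalytic beta subunit, was 1.63 ± 0.17 higher. Atp5g1 and Atp5g3, which encode the same mature subunit c of the rotor, were 1.70 ± 0.16 and 1.78 ± 0.17 higher, whereas the third gene for it, Atp5g2, differed by 0.17 ± 0.08 (adjusted p = 0.061).

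Complex IV, cytochrome c oxidase, was split by isoform. Of the 10 common subunits 9 were higher in liver than in lung, among them Cox4i1 by 1.05 ± 0.16, Cox6a1 by 1.42 ± 0.21, Cox6b1 by 0.87 ± 0.12, Cox7a2 by 0.76 ± 0.14 and Cox8a by 0.84 ± 0.12. Of the 4 tissue-type isoforms that passed the filter in both tissues, 0 were higher, Cox4i2, Cox6a2 and Cox6b2 were lower and Cox7a1 was not called. The factor Cox7a2l, which helps join complexes III and IV, differed by -0.51 ± 0.11 (adjusted p = 2.65e-05), short of 1.5-fold.

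Cox4i2, the form of subunit 4 known from lung, separated lung from both other tissues. Its log2 ratio was 1.66, 1.53, 1.70, 1.53 and 1.51 in the vehicle lungs, -0.25, -0.24, -0.39, -0.28 and -0.17 in the livers and -0.39, -0.29, -0.36 and -0.56 in the forestomachs. Lung was thus high on every array, and liver and forestomach overlapped. The difference from lung was -1.85 ± 0.10 in liver (adjusted p = 1.94e-23) and -1.98 ± 0.10 in forestomach (adjusted p = 6.89e-23). Cox6b2, the testis form of subunit 6b, was 1.35 to 2.28 in lung, 0.51 to 0.98 in forestomach and -0.06 to 0.30 in liver, where 4 of 5 vehicle arrays were above background. It differed from lung by -1.62 ± 0.12 in liver (adjusted p = 2.59e-17) and by -0.98 ± 0.13 in forestomach (adjusted p = 4.31e-09). The list of 4 testis markers gave means of -0.53 to -0.21 in lung.

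The muscle forms of complex IV varied more among lungs than any other member. Cox6a2 was 0.46, 0.03, 0.10, 1.94 and 2.65 in the lungs of vehicle mice 1 to 5, -3.94 to -3.24 in liver and -4.66 to -3.43 in forestomach. In the last pair of tissues 3 of 5 and 3 of 4 vehicle arrays measured it above background. The difference from lung was -4.71 ± 0.33 in liver (adjusted p = 3.16e-18) and -5.34 ± 0.35 in forestomach (adjusted p = 9.22e-19). Cox8b was 3.69, 2.97, 2.91, 5.84 and 7.09 in the same lungs, -0.20 to 0.69 in liver and 0.49 to 3.33 in forestomach. In liver 1 of 5 vehicle arrays measured it, so its liver values are given without a test. Its difference between forestomach and lung was -2.20 ± 0.60 (adjusted p = 0.00176), and these groups overlapped. The list of white fat genes had means of 3.71, 0.24, 4.01 and 4.5 in the forestomachs of vehicle mice 1 to 4, where Cox8b was 2.56, 0.49, 2.85 and 3.33. The part of fat in these values was not tested. Cox7a1, the muscle form of subunit 7a, was 0.30, 0.04, -0.12, 2.43 and 3.03 in lung and -0.58 to 0.09 in liver, a difference of -1.44 ± 0.73 that was not called (adjusted p = 0.0738).

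Mice 4 and 5 were the highest of the vehicle lungs for all 3 muscle forms. Among dosed lungs, Cox8b was 6.25 in mouse 14, 5.24 in mouse 16 and 5.29 in mouse 18, against 2.58 to 4.81 in the other 12. Markers of heart, skeletal muscle and fat also varied among the lungs, and no list was high in every lung with high Cox8b. The heart muscle list had a mean of 1.77 in mouse 14. It was 3.46 and 3.59 in mice 11 and 12, whose Cox8b was not above 4.81. The mean of 7 heart muscle genes ranged from 0.24 to 4.11 over the 20 lungs, with Myh6 between 0.63 in mouse 17 and 6.46 in mouse 4. Of skeletal muscle, Myh4 was 5.65 in mouse 5 and 1.90 in mouse 16 and no more than 0.12 in the rest. Ucp1, the marker of brown fat, was 5.92 in mouse 14 and no more than 0.35 elsewhere. The part of these markers in the isoform values was not tested. The lungs of 7 mice (4, 5, 11, 12, 14, 16 and 18) passed a limit on these lists, and without them 77 members were called between liver and lung, against 74 with them. Cox8b then differed by -0.89 between forestomach and lung, with an adjusted p of 0.109 in limma.

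**Figure D2:**
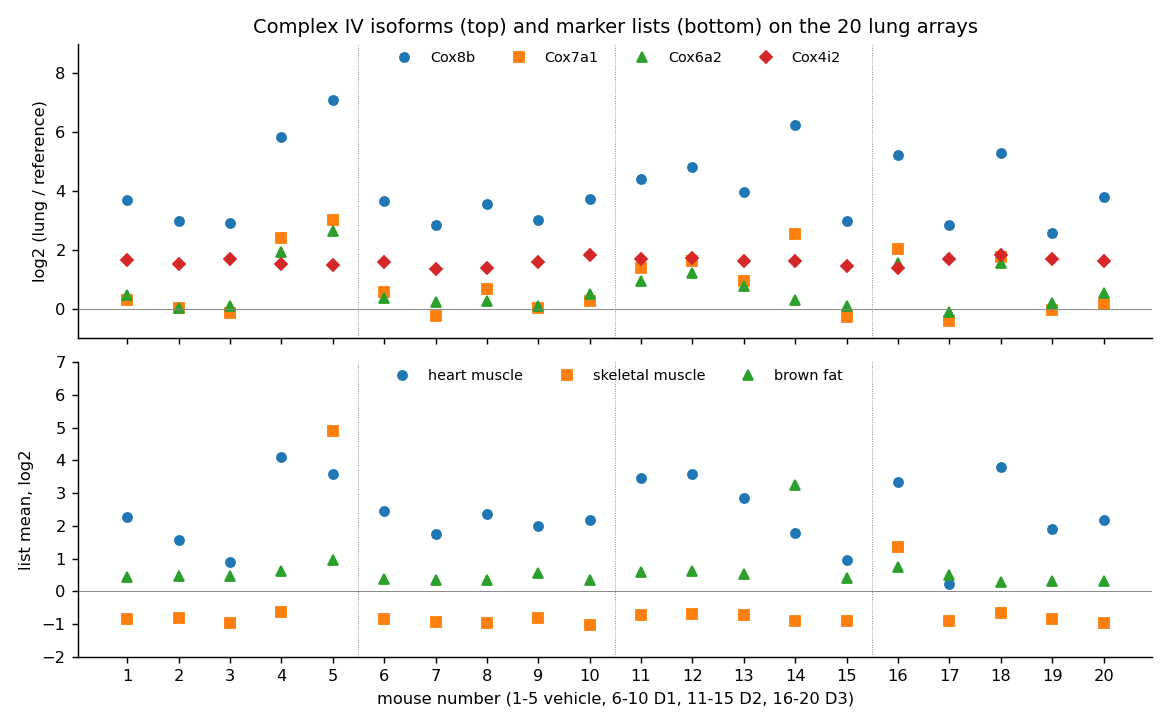
Log2 ratio to the reference of Cox8b, Cox7a1 and Cox6a2 (top) and mean log2 ratio of the marker lists (bottom) on the 20 lung arrays, ordered by mouse number. Mice 4, 5, 14, 16 and 18 have Cox8b above 5, and the heart, skeletal muscle or brown fat lists are raised in the same mice. The heart list is also raised in mice 11 and 12, whose Cox8b is below 5.

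Promoters are shown for common and muscle forms of complex IV subunits. Those of Sdhb and Sdhaf1 are added, the 2 complex II genes called in the lung dose trend described below. Each is the 250 bases before the transcription start in RefSeq (GRCm38.p6), written 5′ to 3′ on the strand of the gene. Capitals mark matches on either strand to the letters GCGCATGC (known for binding NRF1), CCGGAAG (known for binding GABPA), AAGATGG (known for binding YY1) or GGGCGG (known for binding SP1). Capitals also mark the core of the promoter element named after its letters, TATAAA, and the E-box of the muscle factor MyoD, CAGCTG.
Sdhb, chr4:140961021-140961270, plus strand: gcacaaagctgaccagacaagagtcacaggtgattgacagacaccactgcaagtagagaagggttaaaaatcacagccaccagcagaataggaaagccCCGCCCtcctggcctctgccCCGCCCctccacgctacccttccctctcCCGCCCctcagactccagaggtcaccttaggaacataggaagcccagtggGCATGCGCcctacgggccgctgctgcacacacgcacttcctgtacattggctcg
Sdhaf1, chr7:30322376-30322625, minus strand: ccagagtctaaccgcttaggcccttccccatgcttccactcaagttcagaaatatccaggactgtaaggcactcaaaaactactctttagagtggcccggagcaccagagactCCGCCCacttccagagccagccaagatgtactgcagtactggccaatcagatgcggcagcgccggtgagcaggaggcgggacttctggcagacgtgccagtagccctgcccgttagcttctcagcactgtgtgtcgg
Cox7a2, chr9:79759854-79760103, minus strand: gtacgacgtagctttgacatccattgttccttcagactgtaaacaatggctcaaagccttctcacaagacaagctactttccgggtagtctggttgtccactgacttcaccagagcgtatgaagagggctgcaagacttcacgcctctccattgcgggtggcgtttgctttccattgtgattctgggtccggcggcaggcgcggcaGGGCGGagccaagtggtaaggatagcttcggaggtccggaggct
Cox7a1, chr7:30183921-30184170, plus strand: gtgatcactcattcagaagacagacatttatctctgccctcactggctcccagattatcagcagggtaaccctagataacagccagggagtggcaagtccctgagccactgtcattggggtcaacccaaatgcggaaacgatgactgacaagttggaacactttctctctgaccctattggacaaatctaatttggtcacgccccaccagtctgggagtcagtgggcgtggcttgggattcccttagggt
Cox8a, chr19:7217617-7217866, minus strand: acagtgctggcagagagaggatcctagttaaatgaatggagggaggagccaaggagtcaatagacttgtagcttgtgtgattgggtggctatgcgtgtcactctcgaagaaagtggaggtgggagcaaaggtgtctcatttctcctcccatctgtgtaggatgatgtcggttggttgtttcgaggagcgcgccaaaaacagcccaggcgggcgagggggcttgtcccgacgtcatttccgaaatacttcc
Cox8b, chr7:140900447-140900696, minus strand: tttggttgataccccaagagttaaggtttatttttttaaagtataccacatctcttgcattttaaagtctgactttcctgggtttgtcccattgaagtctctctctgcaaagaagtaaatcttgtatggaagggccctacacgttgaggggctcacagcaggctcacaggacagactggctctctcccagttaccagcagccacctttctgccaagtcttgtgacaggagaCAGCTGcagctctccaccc

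The Sdhb promoter held the NRF1 letters 54 bases before the start and 3 SP1 matches. The muscle form Cox8b held the E-box letters 19 bases before the start. Neither the muscle form Cox7a1 nor the common form Cox8a held any of the 6 patterns. RefSeq windows were matched for 80 of the 97 members, 85 windows in all. The NRF1 letters were in 9 of these (10.6%) and in 2.26% of all 32851 windows, and the GABPA letters were in 16 (18.8%) and in 6.91%. The SP1 letters were in 35 (41.2%) and in 32.7%. The median GC content was 57.2% for member windows and 52.4% for all windows. The E-box letters were in 7.06% and 13%, the TATA letters in 9.41% and 12.4%, and the YY1 letters in 1.18% and 4.49%. A match gives the letters in this window, not a bound site.

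Between forestomach and lung fewer members were called. In forestomach 20 were called higher than in lung and 7 lower, 27 of 95, against 39.3% of all 15722 genes called, 18.7% higher and 20.6% lower. The median difference was 0.27 for the members and 0.02 for all genes. Ndufab1 was 1.43 ± 0.16 higher, Uqcrc1 1.20 ± 0.09, Ndufa10 1.16 ± 0.09 and Ndufa4 1.15 ± 0.26. Besides the complex IV isoforms, the lower members were the complex I genes Ndufc2 (-0.995 ± 0.10), Ndufaf3 (-0.73 ± 0.11) and Ndufa2 (-0.64). Liver exceeded forestomach for 55 members and was below it for 3, against 49.2% of all 15401 genes called, 22.3% higher and 26.9% lower. The median difference was 0.69 for the members and -0.04 for all genes. Sdhb, Uqcrq (2.01 ± 0.18), Ndufaf6 (1.88 ± 0.11) and Sdhd (1.77 ± 0.28) differed most. Lower in liver were Ndufa4l2 (-1.67 ± 0.19) and Cox6b2 (-0.64 ± 0.13), and the third lower member, Cox8b, was tested here only through forestomach.

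The order of liver and forestomach depended on the normalization. Each array was centred on its median in place of the loess curve. With this change 3 members were called higher in liver than in forestomach and 5 lower, against 8.25% and 45.6% of all genes. The median difference was -0.15 for the members, while the median over all genes moved to -0.70. The members thus lay 0.55 above all genes, against 0.73 with the deposited ratios. Between forestomach and lung the same change gave 58 higher and 3 lower, against 26.5% and 9.23% of all genes. The median was 1.11 for the members and 0.44 for all genes, a gap of 0.68 against 0.25. The liver and lung counts were 52 higher and 6 lower, against 13% and 28.3% of all genes. The members lay 1.28 above all genes there, against 1.00 with the deposited ratios.

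Forestomach pieces differed among themselves in these genes. The median SD within a dose group was 0.252 for members and 0.209 for all genes, whereas in lung it was 0.149 and 0.168 and in liver 0.117 and 0.175. Pieces also differed in a list of 9 gastric gland genes, such as the proton pump gene Atp4a, which the squamous forestomach is not known to make. On 9 arrays the mean of the list was 0.66 to 2.92, and on the other 10 it was 5.12 to 6.38. The median over all members was 0.03 to 0.12 on the 9 and 0.14 to 0.84 on the 10. Cox7a1 was -1.76 to -1.23 on the 9 and -0.46 to 3.00 on the 10, Cox5a -0.18 to 0.06 and 0.25 to 1.71, and Sdhd -1.07 to -0.75 and -0.53 to 1.07. For these 3 genes the values did not overlap, whereas Cox6a1, 0.26 to 0.56 and 0.44 to 1.96, overlapped. Cox8b overlapped too and ran the other way, 0.74 to 3.33 and 0.37 to 2.43, with medians of 2.38 and 0.80. These 5 genes had the largest spread of all members in forestomach, so they were picked on the same arrays. The share of all genes without overlap was not counted. The 10 arrays were 1 of 4 at D0, 5 of 5 at D1, 2 of 5 at D2 and 2 of 5 at D3. They included every forestomach array of slide 3. On that slide 38.4% to 42.1% of spots were well above background, against 52.4% to 69.2% on the other forestomach slides. The part of the 10 arrays and of the slide in the member values was not tested. Without the 10 arrays, 22 members were called between forestomach and lung and 65 between liver and forestomach.

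**Figure D3:**
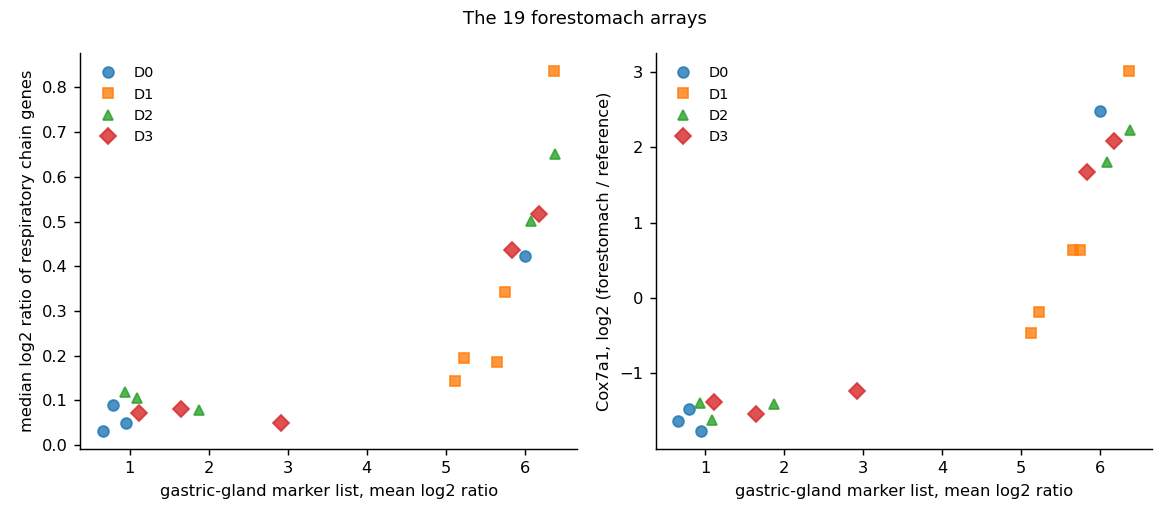
Values on the 19 forestomach arrays against the mean log2 ratio of the gastric gland list, with markers for dose group. The 9 arrays with a list mean up to 2.92 have member medians of 0.03 to 0.12, and the 10 arrays from 5.12 upward reach 0.84.

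Other mitochondrial genes showed tissue differences too, beside 24.2% of all genes called higher and 31% lower in liver than in lung. Of 33 assembly factors outside the symbol rule, 25 were higher in liver than in lung and 1 was lower, with a median of 1.24. Of 18 citric acid cycle and pyruvate dehydrogenase genes 12 were higher, with a median of 0.82, and Cs, the citrate synthase, differed by -0.36 ± 0.13. Of 77 mitochondrial ribosome genes tested 42 were higher and 1 lower, with a median of 0.69. Among 15 regulators of mitochondrial biogenesis 9 were higher and 2 lower, including Ppargc1a (PGC-1alpha) at 1.65 ± 0.19 and Tfam, the mitochondrial transcription factor, at 0.92 ± 0.09. Cyc1, the cytochrome c1 of complex III whose symbol lies outside the rule, was 2.29 ± 0.16 higher (adjusted p = 2.3e-18). The adenine nucleotide carriers diverged, as Slc25a5 was 1.42 ± 0.19 higher and the muscle form Slc25a4 lower in liver, at -4.86 ± 0.16 (adjusted p = 2.51e-32). Atpif1, the inhibitor of ATP synthase, was lower too, at -2.48 ± 0.12, as were the uncoupling proteins Ucp2 at -2.37 ± 0.24 and Ucp3 at -2.16 ± 0.28. Of the cytochrome c and nucleotide carrier genes, 7 were tested between liver and lung but only 6 passed the filter in liver. A difference in this list can thus rest on a liver signal not above background.

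After BaA, 0 members passed the threshold at any dose in any tissue. In lung 0 of 95 were called at D1, D2 and D3, against 0%, 0.586% and 2.05% of all 14515 genes. In liver 0 of 94 were called, against 0.199%, 0.465% and 0.307% of 12034 genes. In forestomach 0 of 95 were called, against 0%, 0.00663% and 0.0199% of 15078 genes. At an unadjusted p under 0.05 in limma, 3, 7 and 7 members passed in lung at D1, D2 and D3, 14, 15 and 9 in liver and 3, 2 and 1 in forestomach. In lung these were 3.16%, 7.37% and 7.37% of members, against 8.52%, 18% and 26.1% of all genes. In liver the member share was above that of all genes at D1 (14.9% against 7.81%) and D2 (16% against 14.1%) and below it at D3 (9.57% against 16.6%). In forestomach it was 3.16%, 2.11% and 1.05%, against 5.70%, 3.81% and 5.36%.

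**Figure D4:**
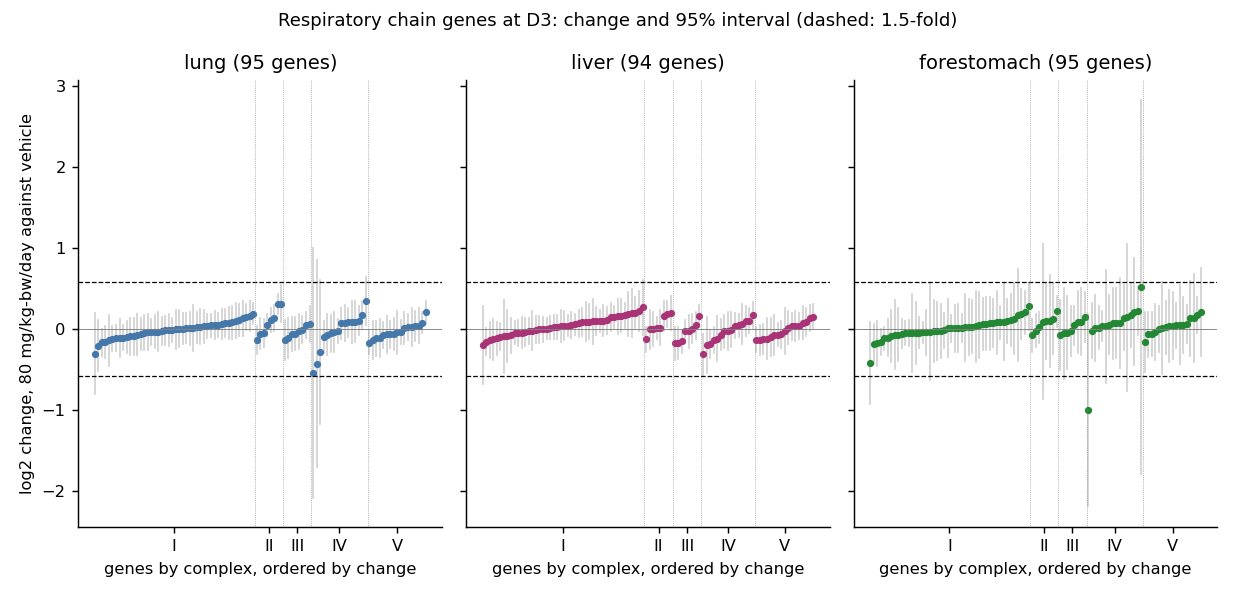
Log2 change at 80 mg/kg-bw/day against vehicle for each tested member with its 95% interval, by tissue and ordered within complex, dashed lines at 1.5-fold. In lung 90 of 95 intervals and in liver 92 of 94 lie within the dashed lines, against 79 of 95 in forestomach.

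The precision was enough to bound most changes. The 95% interval of the D3 change lay within 1.5-fold either way for 90 of 95 members in lung, 92 of 94 in liver and 79 of 95 in forestomach. At D1 this held for 92, 93 and 65 members. The median member change at D1 and D2 was -0.08 and 0.04 in lung, -0.07 and 0.05 in liver and 0.12 and 0.10 in forestomach, with medians over all genes between -0.02 and 0.02. At D1, 80 of 95 members were below 0 in lung and 64 of 94 in liver, whereas 81 of 95 were above 0 in forestomach, as were 84 at D2. The share of all genes on each side of 0 is not given here, and members on the same arrays are not independent. In forestomach the gastric gland list had means of 5.12 to 6.37 at D1, against 0.66 to 6.01 at D0 and 0.93 to 6.38 at D2. The part of that list in these signs was not tested. Within the 3 slides the D1 median was 0.07, -0.02 and -0.18 in lung, 0.03, -0.06 and -0.16 in liver and 0.08, 0.12 and -0.07 in forestomach, so its sign depended on the slide in each tissue. At D2 the forestomach median within slides was 0.03, 0.29 and -0.06. The median change at D3 was -0.02 in lung, 0.01 in liver and 0.03 in forestomach, beside 0.03, 0.03 and 0.00403 for all genes. With median centring the lung median was 0.22 for members and 0.24 for all genes. Compared within the 3 slides of lung, the member median was 0.13, 0.02 and -0.14, so its sign depended on the slide. In liver it was 0.06, 0.02 and -0.00 and in forestomach -0.05, 0.02 and -0.09. The changes at D3 ranged from -0.55 to 0.34 in lung, from -0.31 to 0.26 in liver and from -1.004 to 0.52 in forestomach. At D1, members whose estimate passed 1.5-fold without passing the test were Cox7a1, Cox6a2 and Cox8b in lung and Cox7a1 and Cox8b in forestomach. Cox8b passed it in forestomach at D2 (-0.81) and D3 (-1.004) too, again without passing the test.

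**Figure D5:**
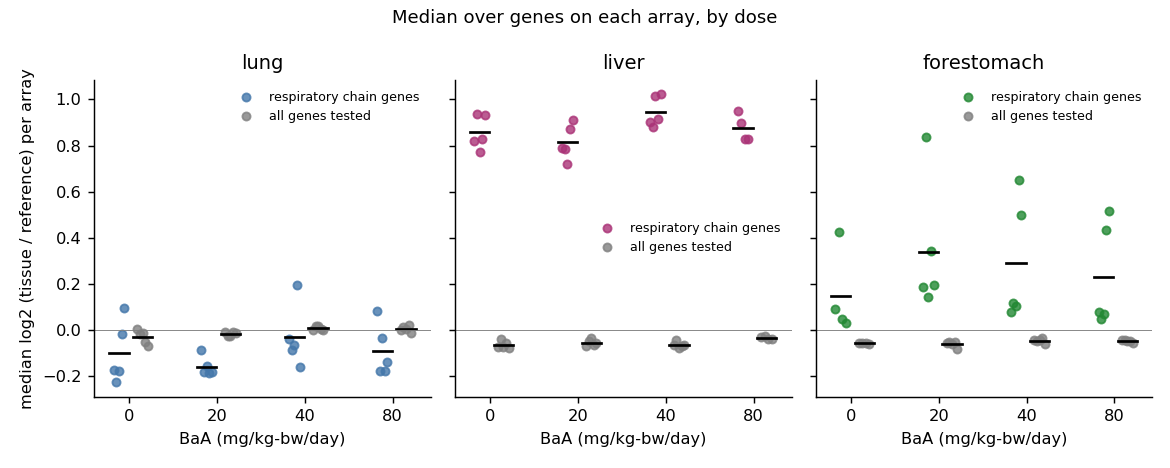
Median log2 ratio to the reference on each array over the members and over all genes, by tissue and dose in mg/kg-bw/day, with black lines at group means. The members lie higher in liver than in lung at every dose, and the forestomach arrays spread most, up to 0.84 on 1 array of D1.

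A trend over dose was called for 3 members in lung by the probe that stands for each gene, all upward, against 12.7% of all genes called in either direction and 9.15% upward. All 3 slopes were small and 2 of the genes belong to complex II. In the same complex, the second probe of Sdhc was called downward, with a slope of -0.00283 per mg/kg-bw/day, while the probe that stands for Sdhc had a slope of -0.00201 and was not called. Sdhaf1, an assembly factor needed for the iron-sulfur clusters of Sdhb, was -0.17, -0.20, -0.10, -0.25 and -0.18 at D0. It was -0.03, -0.23, 0.09, -0.01 and -0.05 at D1, 0.02, 0.08, 0.11, 0.11 and 0.03 at D2. At D3 it was 0.11, 0.13, 0.13, 0.22 and 0.05. All D2 and D3 values lay above all D0 values. Sdhaf1 was picked by its p on these same arrays, and the share of all genes without such overlap was not counted. The slope was 0.00375 per mg/kg-bw/day (adjusted p = 0.00301), and the difference at D3 was 0.31 ± 0.06 (adjusted p = 0.00388), under 1.5-fold. Within the 3 slides the D3 difference was 0.30, 0.32 and 0.31.

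Ndufaf3, an assembly factor of complex I, was 0.30, 0.25, 0.34, 0.27 and 0.37 at D0 and 0.56, 0.41, 0.40, 0.54 and 0.57 at D3, again without overlap. Its slope was 0.00256 (adjusted p = 0.0408), and its difference at D3 was 0.19 (adjusted p = 0.0709). Within the 3 slides Ndufaf3 differed from D0 by 0.16, -0.13 and -0.05 at D1 and by 0.03, -0.02 and -0.04 at D2. At D3 these differences were 0.21, 0.20 and 0.16, so only at D3 was the sign the same on each slide. Sdhb itself was -0.19, -0.23, -0.45, -0.09 and 0.06 at D0 and 0.08, 0.12, 0.29, 0.08 and 0.08 at D3, with a slope of 0.00404 (adjusted p = 0.0447). A difference of 0.31 ± 0.11 was found at D3 (adjusted p = 0.0861). Within the 3 slides Sdhb differed from D0 by 0.13, 0.25 and -0.04 at D1 and by 0.14, 0.71 and -0.07 at D2. The other probe for Sdhb was not called, and Sdhb itself was not called with ratios computed from the scanner signals or with the mean of its probes. Without the 7 lungs named above the trend was called for 1 member, Sdhb (adjusted p = 0.0366). Sdhaf1 then had a slope of 0.00352 (adjusted p = 0.0725) and Ndufaf3 one of 0.00292 (adjusted p = 0.144). Leaving out mouse 4, 8, 13, 16, 17 or 19 also left 1 member called, and leaving out mouse 14 gave 5. The nuclear RNAs Neat1 and Malat1 had a mean of -2.35 to -2.05 at D0, -2.65 to -2.14 at D1, -1.53 to -1.01 at D2 and, in the D3 lungs, -1.78 to -0.20. Their part in the trend was not tested.

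No trend was called for a member in liver, where 1.06% of all genes were called, or in forestomach, where 0.0332% were. There 9 and 2 members had an unadjusted p under 0.05, that is 9.57% and 2.11%, against 16.9% and 5.33% of all genes. The smallest p at D3 in liver was that of Cox7a1, with a change of -0.31 (adjusted p = 0.21), and in forestomach that of Sdhaf1, with a change of 0.22 (adjusted p = 0.894). The D3 effect was also compared between tissues. In limma 0 members were called for liver minus lung, forestomach minus lung or liver minus forestomach, against 2.06%, 0.274% and 0.0342% of all genes, and 3, 1 and 2 members had an unadjusted p under 0.05. In the lists outside the symbol rule, 0 genes were called at any dose in any tissue. Of 33 assembly factors tested, the lung trend was called for 3 upward (Acad9, Uqcc3 and Cox11) and 1 downward (Lrpprc). Of 18 citric acid cycle and pyruvate dehydrogenase genes it was called for 1, Idh2, upward. It was also called for 5 mitochondrial ribosome genes upward and 3 downward of 77 tested. Over all genes the share called in lung was 12.7%, so these calls set none of the 3 lists apart. In liver the trend was called for 1 of 15 biogenesis regulators, Nrf1, beside 1.06% of all genes.

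Ndufa4, described as a subunit of complex IV despite its symbol, was low in the same animals across tissues, a pattern noted after its values were seen. Over the 20 lungs its log2 ratio was -0.71 in mouse 17 and -0.69 in mouse 20, and the other 18 ran from 0.03 to 0.82. In liver it was 0.36 in mouse 17 and 0.94 to 1.87 in the other 18, and mouse 20 has no liver value here. In forestomach it was 0.33 in mouse 17, 0.27 in mouse 20 and 1.16 to 1.65 in the other 17. Both animals were thus the lowest in each tissue measured. Both belong to D3, whose other mice lay within the range of the vehicle group in lung. The single probe for Ndufa4 was above background on every array, and the cause was not tested.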

How the data were processed

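Tissue RNA (Cy5) and a pooled mouse reference RNA (Cy3) were hybridised together on Agilent 2-colour arrays, without dye swaps. The authors deposited scanner files with intensity values and a table of log2 ratios. Per the methods of the study, median signals were normalized by LOWESS without background correction and tested with MAANOVA, which was not used here. On each array the log2 ratios deposited by the authors correlated at 0.995 to 0.998 with loess ratios computed here from the intensities, with slopes of 0.989 to 0.996 and medians of -0.044 to -0.022, so their scale and direction (Cy5 over Cy3) were settled. Probe accessions were mapped to symbols through RefSeq, and each gene was read by the probe above background on most arrays, ties going to the higher mean Cy5 signal.

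Tests used limma 3.58.1 in R 4.3.3, per tissue for dose (groups, or a slope on dose) and over all 58 arrays for tissues, with Benjamini-Hochberg adjustment over all probes tested. The SE of a tissue contrast thus also rests on the spread in the tissue not compared. The number of arrays, 4 or 5 per group, limits the precision. The same number across tissues marks the same animal per the labels. Deviations from group means correlated at a mean of 0.11 between liver and lung, 0.08 between forestomach and lung and 0.04 between liver and forestomach for the same animal. Genes named were, per tissue contrast, the 4 largest called differences each way without overlap, and, per tissue at D3, the called members or else the 4 with the smallest p, and isoform pairs. The members and lists were chosen with earlier results of these data known. Alternatives were other normalizations, filters, probe rules, slide and animal blocks, leaving out each array, and 2 exclusions of arrays chosen after seeing the data. The scripts were tested on simulated data.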

Additional observations from a re-analysis of the deposited data

Results flagged for a closer look

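Values were set apart where the highest or lowest array of a group of 4 or 5 stood far from the others relative to the range of the group (the 95% limit of Dixon's test). This held for 16 of 156 groups of values examined, where chance alone gives about 1 in 20 for independent groups. The groups were not independent, because the genes share arrays. Several flags fell on mouse 2 of D0 and mouse 7 of D1 in forestomach. No excess over chance can be read from the count.

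In lung, mouse 14 of D2 had Sdhb at 0.53, against -0.09 to -0.01 in the other 4 mice, and Ndufab1 at -0.41, against -1.10 to -0.93. Mouse 18 of D3 had Sdhb at 0.29, against 0.08 to 0.12. These lungs are 2 of the 7 with raised heart muscle, skeletal muscle or brown fat markers.

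In liver, Cox6b2 was -0.057 in mouse 3 of D0, against 0.24 to 0.30, and 0.19 in mouse 15 of D2, against -0.21 to -0.10. Cox8b was 0.69 in mouse 1 of D0, the only liver array on which it was above background, against -0.20 to 0.03. Ndufaf3 was 0.36 in mouse 18 of D3, against 0.89 to 0.98.

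In forestomach, mouse 2 of D0 had a median over the members of 0.42, against 0.03 to 0.09 in the other 3 vehicle mice. In it Sdhb was 0.61 (-0.05 to 0.03 in the others), Cox6a2 was -3.43 (-4.66 to -4.55), Cox6b2 was 0.51 (0.94 to 0.98) and Cox7a1 was 2.48 (-1.76 to -1.47). Mouse 2 was the vehicle forestomach with a high gastric gland list, at 6.01. Ndufaf6 was -0.45 in mouse 3 of D0, against -0.66 to -0.65. Mouse 7 of D1 had a median over the members of 0.84, against 0.14 to 0.34, with Uqcrq at 1.19 (0.15 to 0.36) and Ndufaf3 at 0.17 (-0.53 to -0.34). The cause of these values was not tested.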

How the results depend on the processing

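Leaving single arrays out aside, 213 of 225 recomputed counts and medians stayed within 1.5 times or within the spread between replicates, and 572 of 602 recomputed values of named genes kept their direction and side of the threshold. Median centring in place of loess gave the most shifts. With it the median D3 change was 0.22 in lung and -0.072 in liver, and the lung trend was called for 0 members. Forestomach and lung differed in 61 members with a median of 1.11, beside 26.5% of all genes higher and 9.23% lower in forestomach. Liver and forestomach differed in 8 with a median of -0.15, beside 8.25% of all genes higher and 45.6% lower in liver. There Sdhc changed sign to -0.035 (adjusted p = 0.945 in limma). Without a filter on dim probes the lung trend was called for 1 member, as it was without the 7 lungs with other-tissue markers. Without a minimum fold, 1 member was called at D2 and 1 at D3 in lung, and 54 between forestomach and lung. Leaving out 1 array at a time gave 1 to 5 members in the lung trend. It gave 73 to 75 members between liver and lung, 22 to 29 between forestomach and lung and 55 to 64 between liver and forestomach. With the animal as a replicate block, 74, 29 and 56 members were called in these 3 comparisons and 0 in each difference of D3 effects, and the block ended no count of calls. Slide as a random block gave 74, 27 and 57, with a correlation within slides of 0.233. Signal over background limits Cox7b2 and Cox8c in every tissue and Cox8b in liver. The causes of these shifts were not tested.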
